A study of Mus musculus with 6 samples.

Results

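The Zfp zinc finger genes that are expressed in mouse hippocampus were compared between wild type and Ctcf conditional knockout (cKO) animals. Members were taken by name and level. The symbol had to read Zfp followed by a number and at most 1 letter, and the mean over the 6 libraries of its raw CPM (counts per 1000000 counted reads) had to reach 5. Of 24421 rows in the count table, 360 carried such a symbol and 275 reached the floor. The members were thus chosen by their mean level over both genotypes. The rule does not use the difference between genotypes, but it was written with earlier results of these data known. A gene near the floor can also pass it through the genotype in which it is higher. Levels below are a description.

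RNA was sequenced from hippocampus of C57/Bl mice, with 3 wild type libraries and 3 from CTCF cKO mice, which the series describes as biological replicates. All 6 share the strain and the tissue. The labels give no Cre line, no cell type in which Ctcf is deleted, and no age or sequencing date. The p-values set the difference between genotypes against the spread between libraries of the same genotype.

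Most Zfp proteins carry zinc fingers of the C2H2 type, short loops held by a zinc ion, of which several in a row read a stretch of DNA. CTCF, which holds chromatin loops and insulators, is itself a protein of this type. Many mammalian members also carry a KRAB box, a short domain that binds the corepressor TRIM28, which brings in the histone methyltransferase SETDB1 and silences transposons and some imprinted genes. KRAB genes arose largely by duplication and often lie side by side on a chromosome. Other members have fingers that bind RNA or proteins, and some carry the name for another zinc-binding domain.

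Libraries held 14974750 to 23220455 counted reads, and the Zfp genes took 0.757% to 0.818% of them. Ctcf, the targeted gene, was at 64.3, 65.2 and 70.3 CPM in wild type and at 24.1, 34.5 and 35.8 CPM in cKO, a log2 fold change of -1.08 (SE 0.15, adjusted p = 0.0264, edgeR). Unless raw CPM is named, levels are CPM after TMM scaling. None of the 9 markers of hippocampal fields was at 0, and 7 of the 9 had positive log2 fold changes (median 0.22). The 1 that passed the test, the CA1 marker Wfs1, went the other way and fell from 94.2, 121.2 and 112.0 CPM to 47.3, 48.9 and 50.1 CPM. Wild type replicate 2 was low for the hippocampal markers. Its median log2 deviation from a gene's own mean over the 6 libraries was -0.61, against 0.03 to 0.27 in the other libraries. With wild type replicate 2 and cKO replicate 1 left out, Prox1 was at 0.05, Mpped1 at 0.27 and Zbtb20 at 0.19. In that fit Neurod6 was at 0.09, Grik4 at 0.08 and Cpne4 at 0.0043. Neurod2 was at -0.10, Iyd at -0.43 and Wfs1 at -1.06. The libraries also differed in genes of neighbouring tissue. All 8 striatal markers were lower in every cKO library than in every wild type library, with summed levels of 622.2, 3015.8 and 1239.8 CPM in wild type and 133.9, 365.0 and 214.9 CPM in cKO. All 7 choroid plexus and ependyma markers had negative log2 fold changes, with sums of 6279 to 12302 CPM in wild type and 617.6 to 6925.9 CPM in cKO. The 6 oligodendrocyte markers, also all negative, summed to 13314 to 17584 CPM and 10123 to 13349 CPM. None of these markers was at 0. Wild type replicate 2 and cKO replicate 1 lay at the opposite ends for striatum and choroid plexus. The 2 thalamus markers summed to 204.0 CPM in wild type replicate 2 and to 488.2 to 666.9 CPM in the other libraries. In tissue RNA, fewer cells of a type and less RNA per cell cannot be told apart.

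The 275 genes ranged from 5.21 to 299.3 raw CPM, with a median of 17.6. The members just inside the floor were Zfp382 (5.35), Zfp937 (5.31) and Zfp647 (5.21), and those just outside were Zfp712 (4.98), Zfp747 (4.96) and Zfp51 (4.87). Of the 85 Zfp genes under the floor, 8 were at 0 in every library and 64 were tested, with a median log2 fold change of 0.02 and 0 called. All 275 members passed the filter on low counts.

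Levels of different genes were compared per kilobase of exon. The median member stood at 3.68 CPM per kb, with a range of 0.732 to 57.7. Zfp365, whose product binds the scaffold protein DISC1 and acts in neurons and oligodendrocytes, was highest at 57.7 CPM per kb (range over libraries 44.0 to 89.2). Zfp385a, an RNA-binding protein, followed at 47.3 (37.6 to 50.8), a range that overlapped that of Zfp365. Zfp706, a small protein with 1 finger, was next at 38.7 (35.9 to 40.9), again overlapping its neighbour. Below these came Zfp771 (26.8), Zfp428 (25.6), Zfp106 (23.2), Zfp445 (22.8), Zfp740 (19.8), Zfp207 (19.7) and Zfp692 (19.6). Of these 10, Zfp445 alone carried a KRAB box. The median level was 2.85 CPM per kb for the 136 members with a KRAB box and 5.13 for the 138 without.

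Between genotypes, 1 Zfp gene passed the test and the rest did not. Among 14916 genes tested with edgeR, 1.51% were called at an adjusted p below 0.05, 1.05% higher and 0.463% lower in cKO (1.71% called among genes at 5 CPM or more). Of the 275 Zfp genes, 1 was called higher (Zfp772) and 0 lower. At an unadjusted p below 0.05, 40 were higher and 11 lower, against 11.1% and 8.81% of all genes. DESeq2 called 6 higher and 1 lower (3.42% and 2.39% of all its genes), and limma-voom called 1 and 0. In the authors' deposited table, 5 members were called higher and 1 lower (2.41% and 1.65% of its genes).

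Differences were small. In 210 of the 275 the log2 fold change was within 0.25 of 0, beside a median SE of 0.11. It was over 0.5 for 6 genes and under -0.5 for 3. The values leaned to one side: 177 were positive and 98 negative, 64.4% against 49.2% of all genes tested and 50.6% of genes at 5 CPM or more. The median was 0.07, against -0.0042 over all genes. The levels of the genotypes did not overlap in 59 members with cKO above and in 19 with cKO below, beside 14.6% and 12.4% of all genes (16.1% and 13.1% of genes at 5 CPM or more).

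The lean was larger among the genes with a KRAB box than among the others. Of the 136 KRAB members, 108 had a positive log2 fold change, with a median of 0.13 (quartiles 0.02 and 0.22). In 33 of them every cKO library lay above every wild type library, and in 7 every one lay below, beside 14.6% and 12.4% of all genes. Of the 138 without a KRAB box, 69 were positive and 69 negative, the median was -0.0003, and the counts without overlap were 26 and 12. The remaining member, Zfp783, has no annotated protein. The split rests on a sequence score with a cut at 0, and no other cut was tried. Near the cut, Zfp213 (1.64) was counted with a box. Zfp37 (-3.24), Zfp446 (-11.05) and Zfp180 (-11.27) were counted without. The difference between these 2 sets was not tested, and no list test was made.

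**Figure D1:**
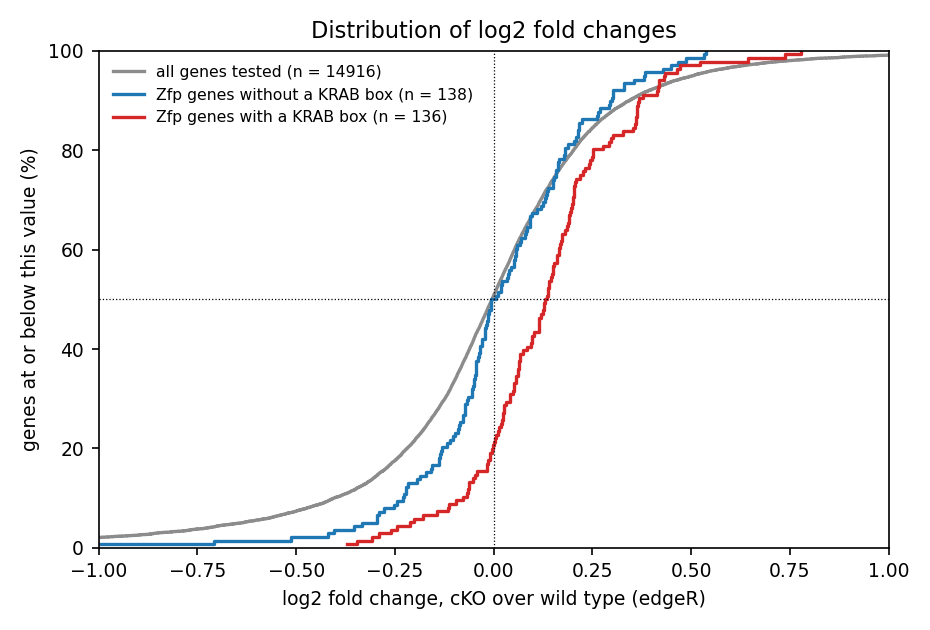
Cumulative share of genes (vertical axis, %) at or below each log2 fold change of cKO over wild type (horizontal axis, cut at -1 and 1), for all 14916 genes tested, 138 Zfp genes without and 136 with a KRAB box. The curve of KRAB genes lies to the right, with its median at 0.13, while the other Zfp genes cross 50% at -0.0003.

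The summed level of the KRAB genes was 2245.7, 2182.3 and 2397.5 CPM in wild type and 2435.8, 2514.2 and 2568.2 CPM in cKO. Every cKO library was above every wild type library (2275 ± 110.6 against 2506 ± 66.5 CPM, SD, n = 3 each), although the nearest pair stood close. The genes without a KRAB box summed to 5244.6, 5644.8 and 5456.8 CPM in wild type and 5515.8, 5502.5 and 5430.0 CPM in cKO, and the genotypes overlapped.

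A sum is led by the higher genes, so the median deviation of each library from a gene's own mean over the 6 libraries was also taken. For KRAB genes it was -0.08, -0.14 and 0.02 in wild type and 0.01, 0.08 and 0.12 in cKO on the log2 scale. Wild type replicate 3 and cKO replicate 1 thus stood level, and the other libraries set the genotypes apart. Wild type replicate 2 was the lowest library for 53 of the 136 genes and wild type replicate 1 for 41, and cKO replicate 3 was the highest for 46. Replicate 3 was both the deepest library and the highest for KRAB genes within each genotype, and the part of depth in the result was not tested.

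**Figure D2:**
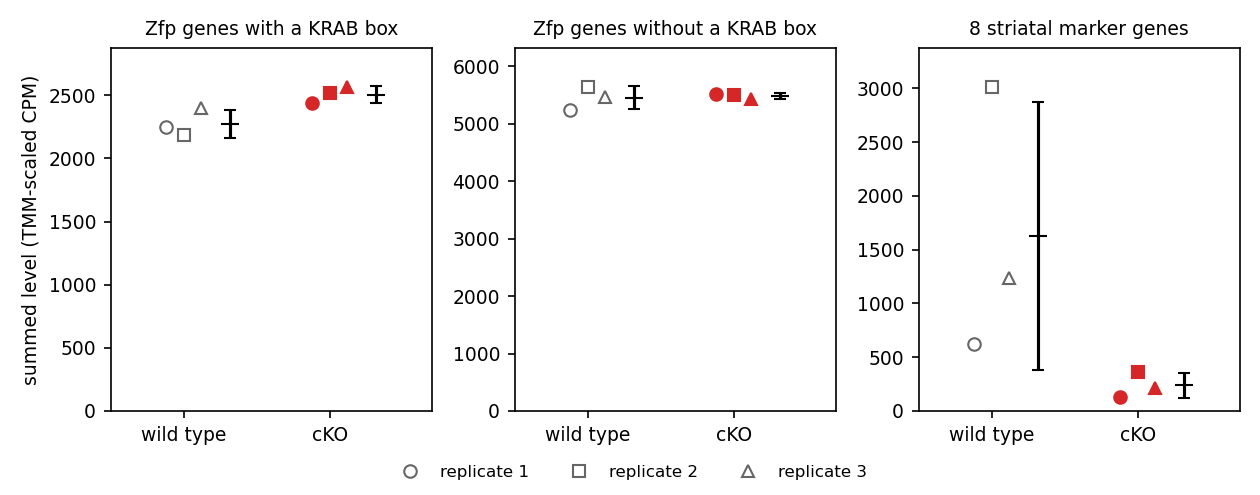
Summed TMM-scaled CPM (vertical axes, from 0) of 136 Zfp genes with a KRAB box, 138 without, and 8 striatal markers in each wild type and cKO library, with mean and SD (n = 3) beside the points. KRAB genes run from 2182.3 to 2397.5 in wild type and from 2435.8 to 2568.2 in cKO, the other Zfp genes overlap, and the striatal markers range from 133.9 to 3015.8.

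The KRAB median stayed positive in both fits that follow, neither of which can separate neighbouring tissue from genotype. With wild type replicate 2 and cKO replicate 1 left out it was 0.13 with 103 of 136 positive, and with the striatal markers as a covariate it was 0.14 with 98 positive. The genes without a KRAB box had 72 of 138 positive (median 0.0094) in the first case and 82 (median 0.041) in the second. The striatal markers still differed between genotypes in the first case. Their sums were 622.2 and 1239.8 CPM in the wild type libraries kept and 365.0 and 214.9 CPM in the cKO ones. It was 0.12 with RLE size factors and 0.11 with upper-quartile scaling. Among the 109 KRAB genes that share under 10% of their 50-base words with another annotated gene, 88 were positive and the median was 0.13.

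The number of fingers, counted in the annotated protein, ran from 0 to 36 with a median of 10. KRAB members had a median of 12 and the others 7. The pattern search found no finger in 8 members: Zfp185, Zfp330, Zfp36, Zfp365, Zfp503, Zfp703, Zfp839 and Zfp935. Zfp142 had the most. Among KRAB members the positive values numbered 4 of 5 with 0 to 4 fingers, 21 of 31 with 5 to 9, 56 of 70 with 10 to 14 and 27 of 30 with 15 to 36. Their medians were 0.06, 0.08, 0.13 and 0.16. Without a KRAB box the counts were 19 of 45, 21 of 46, 16 of 29 and 13 of 18, with medians of -0.02, -0.02, 0.06 and 0.06. In each class of finger number the KRAB median was the higher of the pair.

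**Figure D3:**
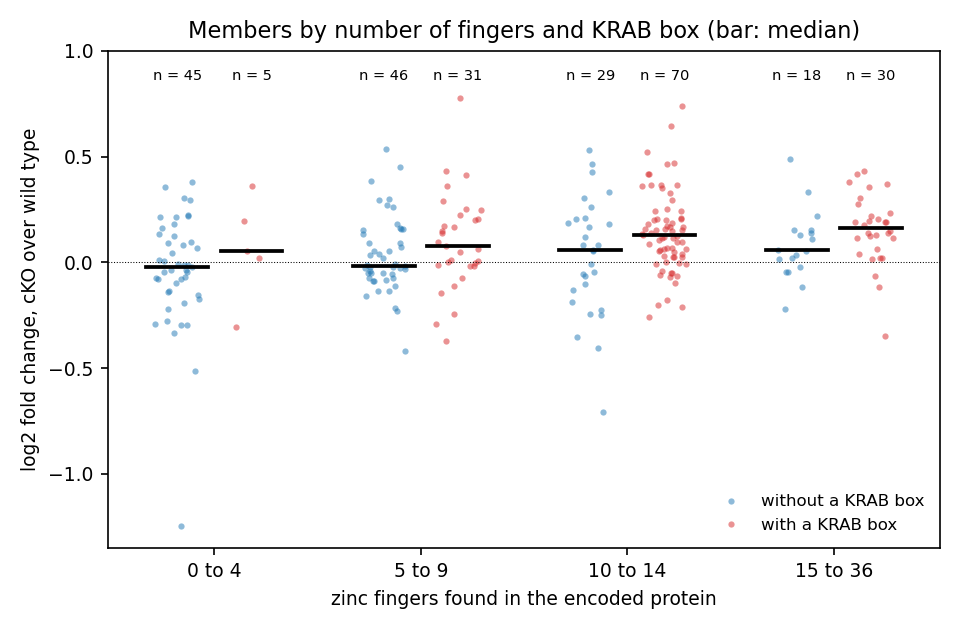
Log2 fold change of cKO over wild type (vertical axis) for 274 Zfp genes by the number of zinc fingers in the protein (horizontal axis) and by KRAB box; each point is a gene and the bars are medians. KRAB medians run from 0.06 to 0.16 and the others from -0.02 to 0.06, with wide overlap of single genes.

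Zfp772, a KRAB gene whose protein has 8 fingers, was the member called higher in cKO. It lies on chromosome 7 from 7202117 to 7209998 on the minus strand (GRCm38). Its level was 14.6, 12.5 and 13.97 CPM in wild type and 25.6, 23.6 and 21.4 CPM in cKO. All 3 cKO libraries were above all wild type libraries. With means of 13.7 ± 1.09 and 23.5 ± 2.11 CPM (SD, n = 3), edgeR gave 0.78 on the log2 scale (SE 0.11, adjusted p = 0.0298). The authors' deposited table gives 0.77 with an adjusted p of 3.2809e-05.

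The call held without wild type replicate 2 (0.71, adjusted p = 0.0413, edgeR) and was lost without any other single library. Leaving out wild type replicate 1 or 3 raised the edgeR adjusted p to 0.0588 and 0.108. Leaving out cKO replicate 1, 2 or 3 gave 0.137, 0.143 and 0.0538, with log2 fold changes of 0.71 to 0.84 over all libraries left out. With both wild type replicate 2 and cKO replicate 1 left out it was 0.65 (adjusted p = 0.086), and with the striatal covariate 0.51 (adjusted p = 0.455). Zfp772 shares 6.89% of its 50-base words with other annotated genes, among them Zfp954.

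The genes beside Zfp772, with those of the lowest levels left out, had values of both signs. Zfp418, 18.6 kb away, had a log2 fold change of -0.25, Zfp773 of -0.32 and Zfp954 of -0.25 (15.1 ± 1.47 against 12.7 ± 0.933 CPM, adjusted p = 0.293). On the other side, 21.3 kb away, the vomeronasal receptor gene Vmn2r29, picked after its values were seen, had 1.92, 2.17 and 1.48 CPM in wild type and 3.79, 4.21 and 3.37 CPM in cKO. Its groups did not overlap, at 1.03 on the log2 scale (SE 0.22, adjusted p = 0.0702). The sequence that Vmn2r29 shares with other genes was not measured. Clcn4-2, a chloride channel gene 72.3 kb away, was at 0.02.

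At an adjusted p below 0.1 there were 8 of the 275 members, beside 691 of all 14916 genes tested in either direction. The 8, Zfp772 among them, all had positive log2 fold changes. Zfp148, a factor that binds GC-rich DNA, had 78.2, 84.5 and 91.8 CPM in wild type and 108.3, 109.3 and 108.2 CPM in cKO (log2 fold change 0.36, SE 0.08, adjusted p = 0.0736). Its groups did not overlap, and its cKO libraries were nearly level. Zfp786, a KRAB gene with 11 fingers, had 5.10, 4.72 and 4.25 CPM in wild type and 9.06, 7.26 and 7.12 CPM in cKO (0.74, SE 0.16, adjusted p = 0.0766). Zfp697 had 13.1, 13.96 and 15.7 CPM in wild type and 22.8, 20.4 and 18.8 CPM in cKO (0.53, SE 0.12, adjusted p = 0.0736). In both, every cKO library was above every wild type one. DESeq2 called these 3 together with Zfp335 and Zfp719.

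The 10 members with the most positive log2 fold changes were, in order, Zfp772, Zfp786, Zfp647 (0.64), Zfp800 (0.54), Zfp697, Zfp810 (0.52), Zfp420 (0.49), Zfp719 (0.47), Zfp711 (0.47) and Zfp930 (0.46). Of these, 6 carry a KRAB box. Zfp786 and Zfp647 (mean of 5.21 raw CPM) passed the floor of 5 through their higher cKO levels. Zfp711 lies on the X chromosome and its human counterpart is mutated in intellectual disability. In 5 of the 10, wild type replicate 2 was the lowest library.

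At the other end stood Zfp185, a LIM-domain protein of the actin cytoskeleton in which no finger was found. It had 5.49, 12.9 and 7.73 CPM in wild type and 0.621, 6.94 and 3.50 CPM in cKO, with overlapping groups (log2 fold change -1.24, SE 0.66, adjusted p = 0.342). With wild type replicate 2 and cKO replicate 1 left out the value was -0.38, and with the striatal covariate it was 1.03. Zfp341, whose human counterpart drives transcription of STAT3, had 12.04, 17.3 and 12.1 CPM in wild type and 7.88, 7.45 and 9.90 CPM in cKO (-0.71, SE 0.19, adjusted p = 0.117, edgeR). Its cKO libraries were all below wild type, and DESeq2 and the authors' deposited table called it lower.

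Zfp503, a factor of the developing striatum, had 13.1, 16.1 and 13.5 CPM in wild type and 8.25, 8.28 and 13.2 CPM in cKO (-0.51, SE 0.21, adjusted p = 0.229). Replicate 3 of cKO lay among the wild type values. The other low members were Zfp575 (-0.42), Zfp180 (-0.41), Zfp213 (-0.37), Zfp467 (-0.35), Zfp945 (-0.35), Zfp36 (-0.33) and Zfp212 (-0.31). In 8 of the 10 lowest, wild type replicate 2, which held the most striatal and choroid plexus RNA, was the highest library, as it was in 50 of all 275. The part of that tissue in these values was not tested.

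**Figure D4:**
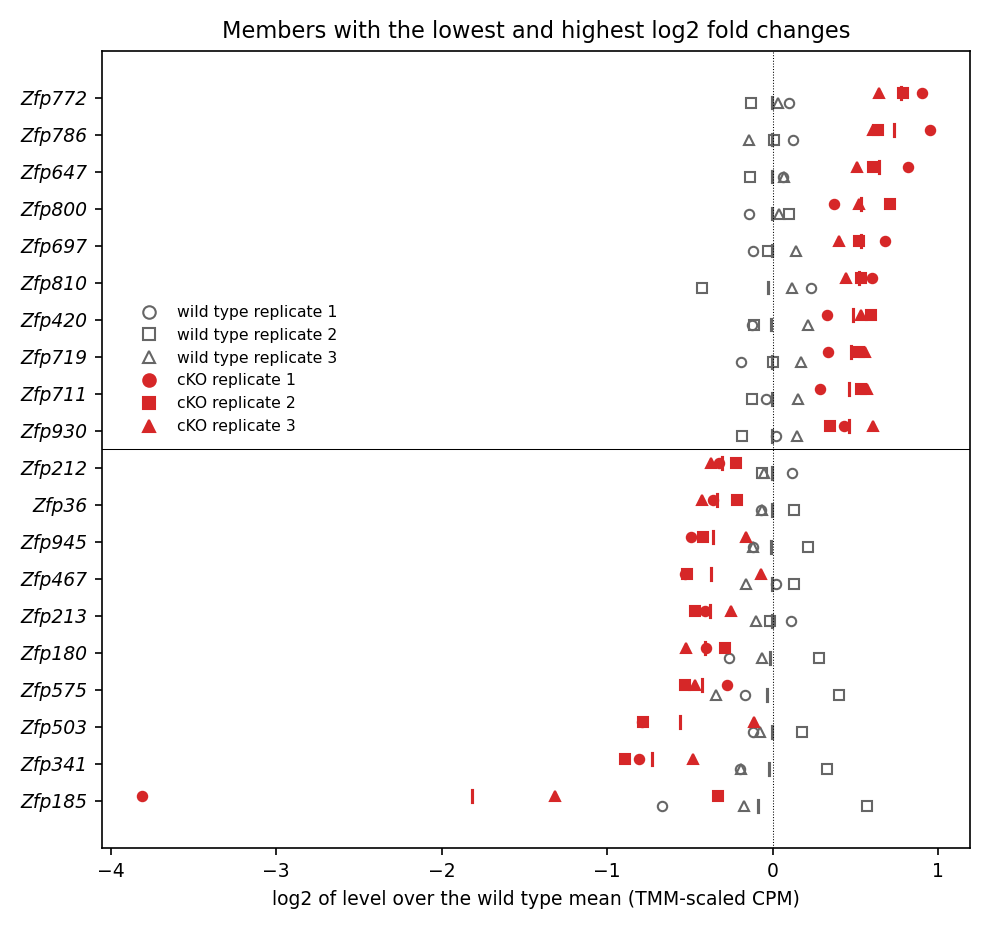
Level of each library relative to the gene's wild type mean (horizontal axis, log2 of TMM-scaled CPM) for the 10 Zfp genes with the highest and the 10 with the lowest log2 fold changes; vertical ticks are means of the log2 values. The squares of wild type replicate 2 are the rightmost points in 8 of the 10 lowest, and cKO replicate 1 of Zfp185 lies far to the left.

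Promoter windows are shown for the called gene and for the members with CTCF-like sequence that had the most positive and most negative fold changes. The RefSeq windows (GRCm38.p6) span 250 bases before to 50 after the start, and 224 members matched 273 windows. The word searched on both strands was AGNGGGCGC, the core of the known CTCF motif. Capitals below mark it or its reverse complement. Zfp772 lies at chr7:7209949-7210248 (minus strand), Zfp786 at chr6:47830456-47830755 (minus) and Zfp341 at chr2:154613118-154613417 (plus).
Zfp772: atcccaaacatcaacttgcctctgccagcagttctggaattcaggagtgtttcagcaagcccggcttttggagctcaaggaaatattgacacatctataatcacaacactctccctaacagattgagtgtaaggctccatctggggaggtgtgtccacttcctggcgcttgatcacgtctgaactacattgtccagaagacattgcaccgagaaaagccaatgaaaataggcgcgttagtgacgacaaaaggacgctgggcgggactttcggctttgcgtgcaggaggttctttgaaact
Zfp786: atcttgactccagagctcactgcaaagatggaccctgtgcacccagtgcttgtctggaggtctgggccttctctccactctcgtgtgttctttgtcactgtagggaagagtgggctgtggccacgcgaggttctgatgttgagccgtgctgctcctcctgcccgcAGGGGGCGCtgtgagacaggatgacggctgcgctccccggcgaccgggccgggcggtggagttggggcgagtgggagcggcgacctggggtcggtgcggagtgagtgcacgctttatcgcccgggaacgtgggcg
Zfp341: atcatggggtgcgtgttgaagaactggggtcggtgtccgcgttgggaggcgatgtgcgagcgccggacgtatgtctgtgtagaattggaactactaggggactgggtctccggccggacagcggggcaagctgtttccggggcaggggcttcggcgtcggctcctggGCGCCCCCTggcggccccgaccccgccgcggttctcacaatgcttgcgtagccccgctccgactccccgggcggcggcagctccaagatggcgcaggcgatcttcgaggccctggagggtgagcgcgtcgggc
The window of Zfp772 held 0 matches. That of Zfp786 held 1, starting 85 bases before the start site, and that of Zfp341 held 1, in the other orientation, 83 bases before. These windows show the word beside genes that differed in opposite directions.

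Over all members, AGNGGGCGC was in 8 windows, 2.93%, against 2.88% of 32851 promoter windows. GGGCGG and TATAAA were searched the same way, and matches of different words may overlap at their ends. The other members with the core were Zfp207 (0.18), Zfp384 (0.04), Zfp398 (0.14), Zfp740 (-0.05), Zfp777 (-0.29) and Zfp783 (-0.09), given with their log2 fold changes. The GC box GGGCGG, the site of Sp1-type factors, was in 35.6% of KRAB windows, 59.3% of windows of other members and 35.7% of all. TATAAA was in 6.23% of member windows and 13.6% of all. A match is a word in a window, not a bound site.

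Lists of members by known role were drawn up by hand and are not a full count of any role. The list of factors linked to chromatin regulators or promoters held 12 members. Of these, 10 had positive log2 fold changes, with a median of 0.15 and 0 called by edgeR. At an unadjusted p below 0.05, 4 were higher and 0 lower, beside 11.1% and 8.81% of all genes. Their groups did not overlap in 7 with cKO above and in 1 with cKO below, beside 14.6% and 12.4% of all genes. Zfp335, a subunit of histone methyltransferase complexes mutated in human microcephaly, had 57.6, 54.4 and 50.7 CPM in wild type and 79.6, 74.8 and 64.5 CPM in cKO (0.43, SE 0.10, adjusted p = 0.0833, edgeR). Its groups did not overlap, but 28.3% of its exon length lies over a gene on the other strand and 19.2% of its 50-base words are shared. Zfp451, a SUMO ligase, was at 0.27 and Zfp532, a partner of the histone reader ZMYND8 in human cells, at 0.21. Zfp143, a promoter-binding activator, was at 0.16 and Zfp410, which controls Chd4, at 0.04, with a value of -0.02 without wild type replicate 2.

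The 5 listed genes known for silencing imprints or retroviruses all carry a KRAB box, and 4 were positive, with a median of 0.19 and 0 called. At an unadjusted p below 0.05, 1 was higher and 0 lower, beside 11.1% and 8.81% of all genes. Zfp445, which keeps imprints together with Zfp57, had 154.4, 140.0 and 168.3 CPM in wild type and 181.9, 184.2 and 184.9 CPM in cKO (0.25, SE 0.08, adjusted p = 0.162, edgeR). Every cKO library was above wild type. Zfp57 was at 0.36 with overlapping groups, Zfp932 at 0.19, Zfp809, which recognises a retroviral primer binding site, at 0.10, and Zfp568, a repressor of a placental Igf2 transcript, at -0.06.

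Of 9 listed members that act on RNA or in translation, 4 were positive, the median was -0.0064, and 0 were called. At an unadjusted p below 0.05, 0 were higher and 1, Zfp36, was lower, beside 11.1% and 8.81% of all genes. Zfp36, or tristetraprolin, which speeds decay of AU-rich mRNAs, had 7.87, 9.05 and 7.93 CPM in wild type and 6.45, 7.14 and 6.15 CPM in cKO (-0.33, SE 0.14, adjusted p = 0.234, edgeR). Its groups did not overlap. The sensor of collided ribosomes Zfp598 was at 0.01 and the ribosome biogenesis factor Zfp622 at 0.01.

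Of the listed genes known from neurons or glia, 11 have a row and 10 were tested, of which 5 were positive, with a median of 0.04 and 0 called. At an unadjusted p below 0.05, 2 were higher and 1 lower, beside 11.1% and 8.81% of all genes. Zfp804a, whose human counterpart is linked to schizophrenia, had 39.0, 29.8 and 46.8 CPM in wild type and 51.6, 49.95 and 49.2 CPM in cKO (0.38, SE 0.15, adjusted p = 0.228, edgeR). The genotypes did not overlap, and wild type replicate 2 was lowest. Zfp369 and Zfp110, both interactors of the neurotrophin receptor p75, were at 0.41 and 0.20, and Zfp536 was at 0.33. The oligodendrocyte factor Zfp488 was at -0.13 and Zfp24, a factor of myelination listed under its older symbol Zfp191, at 0.13 (adjusted p = 0.359, edgeR). Both stand beside negative values of all 6 oligodendrocyte markers, whose part was not tested.

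Zfp365 had 228.8, 464.5 and 299.3 CPM in wild type and 295.8, 280.4 and 232.7 CPM in cKO (-0.30, SE 0.24, adjusted p = 0.533, edgeR). The groups overlapped, wild type replicate 2 stood far above the others, and without it the value was 0.03. Zfp423 and Zfp521, related factors of cell fate, were both at -0.05.

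The corepressor genes through which KRAB proteins act were read in the same fit. Of 21 with a row, 20 were tested, 14 were positive, the median was 0.05 and 0 were called. At an unadjusted p below 0.05, 3 were higher and 0 lower, beside 11.1% and 8.81% of all genes. DESeq2 called 1 higher, beside 3.42% of its genes, and limma-voom called 0. Trim28 had 182.1, 174.6 and 182.3 CPM in wild type and 204.0, 181.8 and 172.1 CPM in cKO, with overlapping groups (log2 fold change 0.05). Setdb1 was at 0.07, also with overlap. The 3 at an unadjusted p below 0.05 were Fam208a, a subunit of the HUSH silencing complex, at 0.51 (adjusted p = 0.0833), the remodeller Chd3 at 0.28 and Morc2a at 0.16, named for that count. Uhrf1, named as the largest change of the list, was at -0.78 (adjusted p = 0.252). It had 1.65, 2.93 and 1.54 CPM in wild type and 0.993, 1.08 and 1.43 CPM in cKO. Groups did not overlap in 4 corepressor genes with cKO above and in 1, Uhrf1, with cKO below, beside 14.6% and 12.4% of all genes.

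Zfp genes lie in groups along chromosomes. With at most 200 kb between neighbours and at least 4 members, 13 groups held 91 members, 67 of them with a KRAB box. KRAB genes inside groups were positive in 51 of 67 (median 0.10) and those elsewhere in 57 of 69 (median 0.15), so the lean was not confined to groups. Of the 23 other members inside groups, 9 were positive.

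The group on chromosome 17 from 32765496 to 33394641 held 12 KRAB genes, of which 11 were positive, from -0.0092 to 0.42 with a median of 0.15. None of the 12 was called. On chromosome 13 from 67424549 to 67729173, 7 of 9 KRAB genes were positive, up to 0.38 for Zfp729b, which shares 39.9% of its 50-base words with other genes. In a group on chromosome 7 from 27731389 to 28014115, 4 of 4 were positive.

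Other groups were mixed. On chromosome 6 from 47819266 to 48086593, 3 of 8 were positive, and the values ran from 0.74 for Zfp786 to -0.31 for Zfp212. On chromosome 7 from 24081924 to 24587641 the count was 5 of 10, and from 29768552 to 30169750 it was 9 of 13. By chromosome, 25 of 30 members on chromosome 17 and 43 of 69 on chromosome 7 were positive, while 0 of 4 on chromosome 14 were.

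**Figure D5:**
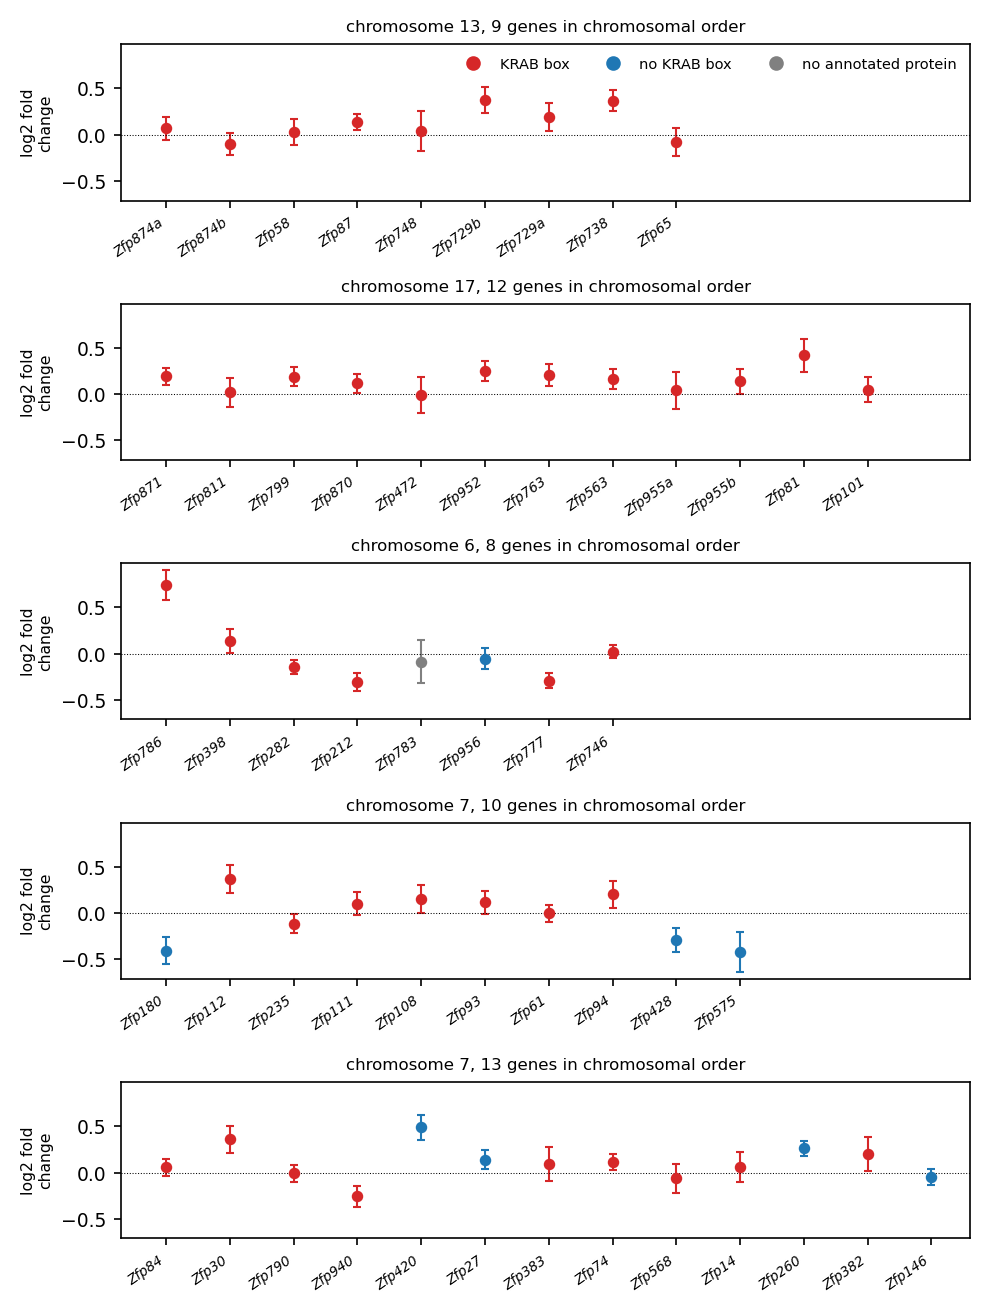
Log2 fold change of cKO over wild type (vertical axes; bars are the SE of the fit) for the Zfp genes of the 5 groups with at least 8 members, in chromosomal order and coloured by KRAB box. On chromosome 17, 11 of 12 values lie above 0, while the chromosome 6 group runs from 0.74 to -0.31.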

How the data were processed

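Counts per gene symbol, raw and whole, were deposited by the authors for the 3 wild type and 3 cKO libraries of hippocampus. The file headers give the genotype and repeat number of each. Their deposited table also has normalised counts (a signal, not used for tests), a log2 fold change, a p-value and an adjusted p-value. The tools in the submitters' processing notes are HTSeq 0.6.1p1, DESeq2 1.6.3, TopHat2 2.0.10 and cutadapt, with build mm10. Strand use, read length, settings and annotation version are not given in the sources used here. Reads may thus be shared with a gene on the other strand (26 members overlap one over at least 10% of their exons), and 47 members share at least 10% of their 50-base words with another gene.

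All genes were fitted together with edgeR 4.0.16 (R 4.3.3): filter with a minimum count of 10, TMM scaling, quasi-likelihood test, Benjamini-Hochberg adjustment over 14916 genes, threshold 0.05. Adjusted p-values are from this fit unless another tool is named. The SE comes from the fold change and its F statistic. Alternatives were DESeq2 1.42.0, limma-voom 3.58.1, other scalings, filters, thresholds and floors, the replicate block, libraries left out, and a striatal covariate (the mean log2 CPM of 8 markers). This covariate was lower in every cKO library than in every wild type library, so its fit cannot separate tissue from genotype. Totals per library ranged from 14974750 to 23220455, and no library pair agreed within sampling noise (at least 10.7 chi-square per degree of freedom).

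Positions, exon lengths and proteins came from GENCODE M21 (GRCm38), which matched all 275 members. A KRAB box was called from a log-odds matrix of 40 residues built on 114 seed proteins, positive in 202 of 356 Zfp proteins. Only the longest annotated protein of each gene was scored, so a box that was missed counts as none. Fingers were counted by the spacing of paired cysteines and histidines. Named genes are Ctcf, called members, the 10 highest and 10 lowest log2 fold changes, the 10 highest levels per kb, the floor's neighbours and the role lists; others are named with their reason. Zfp24 was read under its older symbol Zfp191, and Zfp238, now Zbtb18, falls outside the symbol rule. Members, lists and the KRAB split were chosen with earlier results of these data known, and motifs with the sequences seen.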

Additional observations from a re-analysis of the deposited data

How the results depend on the processing

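The count of Zfp genes called higher was 1 by edgeR, 6 by DESeq2, 8 at an adjusted p below 0.1 and 0 below 0.01. It was 0 without both wild type replicate 2 and cKO replicate 1 (unadjusted p below 0.05: 24 higher, 4 lower), 0 with the striatal covariate (15 and 2), and 0 to 1 without any single library. The count called lower was 0, and 1 by DESeq2. Corepressors called were 0, and 1 by DESeq2 and at an adjusted p below 0.1. All genes called were 225, against 869 by DESeq2, 111 without both libraries, 20 and 691 at the stricter and looser thresholds, 12 to 147 without single libraries, and 0 with the covariate (1613 at an unadjusted p below 0.05).

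The median over all members was 0.0607 to 0.101 without single libraries. The KRAB median was 0.0897 to 0.167 over 16 alternatives. The median without a KRAB box was 0.00567 to 0.0213 without single libraries, -0.018 with upper-quartile scaling and 0.041 with the covariate. Ctcf was -1.19 to -0.92 without single libraries, and -0.79 with the covariate (adjusted p = 0.453). Leaving out wild type replicate 1, wild type replicate 3 or cKO replicate 2 ended its call too (adjusted p = 0.0604, 0.102 and 0.124). The cause of these shifts was not tested.

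Over 64 named genes besides Ctcf and 15 fits, 896 of 960 values kept sign and call, 7 lost the call (all Zfp772), 6 gained it (all DESeq2) and 51 changed sign. Only Zfp772 had a call to lose, and it lost it in 7 of the 15 fits. For the other named genes, keeping the call meant staying uncalled. With the covariate the log2 fold changes that changed sign were Zfp810 -0.033, Zfp185 1.03, Zfp180 0.11, Zfp945 0.025, Zfp692 -0.17, Zfp207 -0.011, Zfp740 0.013, Zfp106 0.053, Zfp706 0.00040, Zfp365 0.53, Zfp410 -0.075, Zfp462 0.026, Zfp568 0.19, Zfp598 -0.026, Zfp609 -0.090, Zfp622 -0.30, Zfp932 -0.025, Zfp937 0.18, Trim28 -0.11 and Setdb1 -0.017. Without both libraries they were Zfp410 -0.0036, Zfp568 0.044, Zfp598 -0.0049, Zfp622 -0.083 and Trim28 -0.044. Upper-quartile scaling gave Zfp598 -0.0067 and Zfp622 -0.012, DESeq2 gave Zfp622 -0.00025, and RLE factors gave Zfp622 -0.0012. Over the fits that leave out 1 library or both of those, values spanned 0 for Zfp771 (-0.19 to 0.060), Zfp365 (-0.50 to 0.029), Zfp346 (-0.039 to 0.031), Zfp410 (-0.016 to 0.079), Zfp423 (-0.23 to 0.096), Zfp462 (-0.050 to 0.00049), Zfp521 (-0.12 to 0.043), Zfp568 (-0.14 to 0.044), Zfp598 (-0.021 to 0.070), Zfp622 (-0.083 to 0.094) and Trim28 (-0.044 to 0.10).

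Replicate numbers are shared by the genotypes, but the labels do not say that a number marks a litter, batch or day. Same-numbered libraries deviated together with r of 0.219, 0.425 and 0.0788. For wild type replicates 1 and 2 this was the highest r with any cKO library. Wild type replicate 3 was nearly level with cKO replicate 1 (0.0801). These values do not settle whether the libraries are pairs. The main fit took no pairs, and a replicate block was fitted as an alternative. With the replicate block, 185 genes were called, among them 1 Zfp gene higher and 0 lower, and the KRAB median was 0.13. With 3 libraries a group and a median SE of 0.11, log2 differences near 0.13 in a single gene were not detectable.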
